A study of Mus musculus with 3 samples.

Results

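The 10 genes described here encode anillin (Anln) and 9 proteins that act with it or near it when a cell divides, namely Ect2, Rhoa, Cit, Racgap1, Prc1, Aurkb, Incenp, Birc5 and Cep55. They were taken by gene symbol, and all 10 were found among the 15058 genes of the deposited tables. Anln was selected on its higher value in the Drosha-null library than in the control library, and the other 9 were chosen by role with the results known, so the Anln ratio is a description and supports nothing further. The libraries are total RNA from mouse erythroblasts (immature red blood cells that still have a nucleus), sorted from the peripheral blood of E10.5 embryos, with 5 embryos pooled.

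The control library came from CD71+ Ter119-high cells of Drosha fl/fl or fl/+ embryos, described as Drosha wild type. The Drosha-null library came from CD71+ Ter119-high cells of Drosha fl/fl;cdh5-cre+ embryos. The Ter119-low library came from CD71+ Ter119-low cells of Drosha fl/fl;cdh5-cre+ embryos, and its label gives Drosha as being as abundant as in the wild type. Drosha is the nuclease that cuts primary microRNA transcripts, and CD71 and Ter119 are surface proteins used to sort erythroblasts. Cdh5, the promoter that drives the Cre recombinase, is known as an endothelial gene, and the labels name no Cre for the control. The null and Ter119-low libraries carry the same alleles and differ in the sort gate and in the Drosha abundance that their labels give. Their comparison is therefore not one of gate alone. The null and control libraries share the gate and differ in genotype. Against the control the Ter119-low library differs in both genotype and gate.

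Each group has 1 library, so there is no spread between samples and no test. Every ratio below is a log2 ratio of scaled counts with a 95% exact counting interval (Clopper-Pearson), which covers counting error only, as no molecular identifiers are mentioned and repeat copies of 1 molecule could not be removed here. A gene was called when the ratio reached 2-fold and the interval excluded no difference. Calls compare these libraries, not the conditions, and the 3 comparisons share libraries. In these bulk samples a gene's lower level could come from fewer cells of a type or from less RNA per cell, which cannot be told apart.

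Cytokinesis starts when the RhoA GTPase is switched on at the cell equator, where the exchange factor Ect2 activates it and the anillin scaffold links it to actin, myosin and septins in the contractile ring. Ect2 is brought there by centralspindlin, which contains Racgap1, on the bundled microtubules of the central spindle that Prc1 crosslinks. The chromosomal passenger complex, with the kinase Aurkb, its scaffold Incenp and the survivin protein Birc5, sets the position and timing, citron kinase (Cit) stabilises the midbody, and Cep55 recruits the ESCRT machinery that cuts the last bridge. Embryonic erythroblasts go on dividing in the circulation.

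The promoters of many cell cycle genes carry a CHR element, bound by the MuvB complexes that switch such genes on and off in the cell cycle. The 300-base RefSeq windows (GRCm38.p6, most of each lying before the start of the gene) were searched on both strands for TTTGAA (its reverse complement being TTCAAA) and for the palindrome TTCGAA, and 19.2% of all 32851 windows held a match. Of the 8 members with a window, 5 held one in any of their windows. Counted by gene in the same way, a match was held by 16.6% of 8704 measured genes with a window. The share was 31.4% of 51 other cytokinesis genes and 77.8% of 27 other mitosis genes. The 30-base stretches around the match are shown because the 5 members with a match had the members' highest Drosha-null to control ratios, as given below. Anln was itself selected on that ratio, so this overlap is a description and supports nothing further. Capitals mark the CHR letters, and each is given 5′ to 3′ on the gene's strand.
Anln, chr9:22389168-22389197, minus strand: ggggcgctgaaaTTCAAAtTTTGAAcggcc
Ect2, chr3:27153975-27154004, minus strand: ccgtttaccggaTTTGAAacacactcacaa
Prc1, chr7:80294434-80294463, plus strand: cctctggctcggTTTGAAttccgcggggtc
Racgap1, chr15:99651634-99651663, minus strand: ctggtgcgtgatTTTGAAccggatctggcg
Cep55, chr19:38054996-38055025, plus strand: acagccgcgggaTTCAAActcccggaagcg
Anln held 2 matches 1 base apart, just after its start, and Ect2 held 2, of which 1 is shown. Cit, Rhoa and Birc5 had a window with no match, which says only that these letters were not there. Aurkb and Incenp were not searched.

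The libraries held 9325814 to 9497425 counts and 13277 to 13894 detected genes each, of which 27.93% to 28.72% of counts were ribosomal RNA. Drosha had 324 counts in the control, 122 with the Drosha-null label and 244 with the Ter119-low label. It was lower than in the control by a log2 ratio of -1.81 (interval -2.13 to -1.51) in the null library and by -0.49 (-0.74 to -0.25) in the Ter119-low library, so the Ter119-low library stood between the other libraries. All 10 erythroblast markers were present, and their summed level was 278156 CPM (counts scaled to a common library size) in the control, against 141170 for null cells and 241383 for Ter119-low cells. Against the control, the embryonic globins Hbb-bh1 (-1.70) and Hbb-y (-1.11) and the anion exchanger Slc4a1 (-1.21) were among the markers called lower in the null library, and the part of these markers in the results below was not tested. Globin genes took 25.01%, 17.06% and 23.11% of counts in the same order, and their part in the ratios was not tested. Scaling was by TMM, which assumes that most genes do not differ, and its factors were 0.884712, 1.19493 and 0.945921. With total counts in place of TMM the median ratio of all genes, null against control, moved from -0.02 to 0.41, a shift of 0.43 that applies to every member's ratio as well. Of all genes called in that comparison, 61.4% were higher with TMM and 89.2% with total counts, and against the Ter119-low library the shares were 64.6% and 86.7%.

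Among the 10 members, Anln and Cep55 were called higher in the Drosha-null library than in the control, and none was called lower. Over all 10769 genes measured in that comparison, 12.4% were called higher and 7.79% lower. The member count is read with the choice of Anln in mind, and no test stands behind it. The members' median ratio was 0.34, against -0.02 over all genes, with 7 of 10 above 0. For 6 members the counting interval lay above 0 and for 2, Cit and Birc5, below it. The member just inside the 2-fold limit was Anln at 1.61 and the one just outside was Prc1 at 0.84. In the Ter119-low library against the control no member was called in either direction, where 2.90% of 10591 genes were called higher and 2.76% lower. The members' median there was -0.02 beside 0.00 over all genes. Against the Ter119-low library the null library again had Anln and Cep55 called higher, where 10.8% of 10795 genes were called higher and 5.94% lower, and the median was 0.29 beside -0.02.

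**Figure D1:**
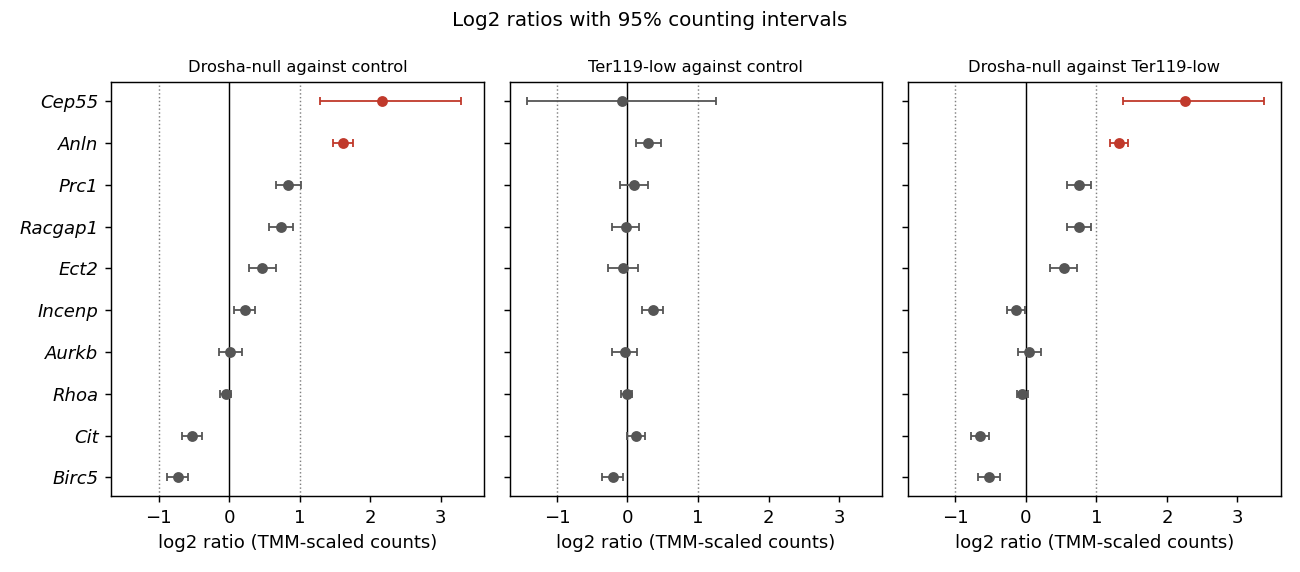
Log2 ratios of the 10 members in the 3 comparisons, with exact 95% counting intervals as bars. The dotted lines mark 2-fold, and Anln and Cep55 lie past it in the Drosha-null library against both other libraries.

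The ring and RhoA members came apart. Anln, the scaffold that ties RhoA to the actomyosin ring (chr9:22332012-22389188, minus strand, GENCODE M21 on GRCm38), had 470 control counts, 1907 Drosha-null counts and 611 Ter119-low counts. The null library was the high one, and Ter119-low was above the control by 0.29 on the log2 scale (interval 0.12 to 0.47). The null to control ratio was 1.61 (1.47 to 1.76), a 3.06-fold higher scaled level, and the null to Ter119-low ratio was 1.32 (1.19 to 1.45). Anln ranked 678 of 10769 genes by its null to control ratio and 814 of 10795 by its null to Ter119-low ratio. It is a long transcript of 5421 bases, and the null to control ratio followed length over all genes (Spearman rho 0.31 over genes, which are not independent). In the 1077 genes of its length class the median was 0.22 and 17.3% were called higher, and the part of length in the result was not tested.

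Ect2, the exchange factor that loads RhoA with GTP (chr3:27097222-27153878, minus strand), had 346, 637 and 351 counts in the same order of libraries. Control and Ter119-low were nearly equal (-0.06, interval -0.28 to 0.15) and the null library was higher by 0.47 (0.28 to 0.67), short of 2-fold. Rhoa, the GTPase itself (chr9:108306129-108337934, plus strand), had 2382, 3046 and 2513 counts. Its ratios were -0.05 in the null library and -0.01 in the Ter119-low library, each with an interval that included 0, although with total-count scaling the null ratio was 0.38. Cit, a kinase of the late ring and midbody (chr5:115845278-116008947, plus strand), had 927, 851 and 1068 counts, and the null library was the low one. Its null to control ratio was -0.53 (-0.67 to -0.39) with TMM, where its length class had a median of 0.29, and the null to Ter119-low ratio was -0.65 (-0.78 to -0.52). With total counts the null to control ratio of Cit was -0.10. Within the ring members, then, the ratio ran from -0.53 for Cit to 1.61 for Anln.

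The central spindle members lay together. Racgap1, the GTPase-activating subunit of centralspindlin (chr15:99620496-99651656, minus strand), had 426, 940 and 444 counts. Prc1, which bundles the antiparallel microtubules of the central spindle (chr7:80294450-80316259, plus strand), had 391, 931 and 442. In both the null library was the high one and the control and Ter119-low libraries differed within counting error, at -0.02 (-0.22 to 0.17) and 0.09 (-0.11 to 0.29). The null to control ratios were 0.73 (0.57 to 0.90) for Racgap1 and 0.84 (0.67 to 1.02) for Prc1, beside -0.01 in their length class. Neither reached 2-fold under TMM scaling. Both passed it under total-count scaling and in the authors' FPKM (fragments per transcript length and library size), and Prc1 also with ribosomal RNA and globin left out of the totals (1.03).

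The passenger complex gave 3 different patterns. Aurkb, the kinase (chr11:69045647-69051664, plus strand), had 535, 715 and 551 counts and a null to control ratio of 0.01 (-0.15 to 0.18), or 0.44 with total counts; its Ter119-low to control ratio was -0.04 (-0.22 to 0.13). Incenp, the scaffold that activates the kinase (chr19:9872296-9899551, minus strand), had 635, 979 and 862 counts, and it was the member highest in the Ter119-low library relative to the control at 0.36 (0.21 to 0.51). Its null to control ratio was 0.22 (0.07 to 0.36), so the control was the low library, and the sign of its null to Ter119-low ratio depended on scaling (-0.14 with TMM, 0.20 with total counts). Birc5, which brings the complex to chromosomes (chr11:117849251-117855743, plus strand), had 785, 628 and 720 counts. These were rounded from fractional estimates of 785.04, 627.68 and 719.87, so the rounding itself changed little. How the fractions arose is not stated, and Birc5 is uncertain for that reason. The deposited tables also give it different lengths, 1243.06 bases in the null table and 1105.18 in the Ter119-low table, which bears on its FPKM values, and its null to control ratio was -0.44 by FPKM. Birc5 was lowest in the null library, with ratios to the control of -0.73 (-0.88 to -0.58) in the null (-0.30 with total counts) and -0.21 (-0.36 to -0.06) in the Ter119-low library. Its length class had a null to control median of -0.28.

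Cep55, which recruits ESCRT proteins to the midbody (chr19:38055011-38074423, plus strand), was the least abundant member, with 11 control counts, 68 null counts and 11 Ter119-low counts. The null library was high and the others equal. Its ratio of 2.17 (1.29 to 3.29) to the control and 2.25 (1.38 to 3.37) to the Ter119-low library ranked 356 of 10769 and 238 of 10795 genes, on few counts. Cep55 stood at 0.43, 3.02 and 0.46 FPKM, and requiring 10 CPM removed it from the measured genes. Its deposited length was 2477.82 bases in the null table and 2616.18 in the Ter119-low table, which bears on its FPKM values.

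Per transcript length, the control order of levels was Rhoa at 121.62 FPKM, then Birc5 at 77.6, Aurkb at 29.76, Incenp at 21.18, Racgap1 at 15.58, Cit at 14.26, Prc1 at 13.85, Anln at 9.22, Ect2 at 9.14 and Cep55 at 0.43. Neighbours whose 95% counting intervals overlapped were Racgap1 with Cit (14.1 to 17.1 and 13.4 to 15.2), Cit with Prc1 (12.5 to 15.3) and Anln with Ect2 (8.41 to 10.1 and 8.2 to 10.2). In the null library Anln stood at place 4 with 38.14 FPKM (36.4 to 39.9), at the 91.9 percentile of detected genes against 73.6 in the control, and in the Ter119-low library it was at place 8 with 12.09 FPKM, as in the control. Its null level lay beside those of Aurkb (40.58), Racgap1 (34.84), Prc1 (33.62) and Incenp (33.3), with an interval that overlapped those of Aurkb (37.7 to 43.7) and Racgap1 (32.6 to 37.1). In the authors' deposited table the log2 ratio of FPKM values, null against control, was 2.05 for Anln and 2.81 for Cep55. FPKM values are not scaled by TMM, and the same ratios from total counts were 2.05 and 2.60. With TMM they were 1.61 and 2.17, so the deposited ratios are the same data under another scaling, not separate support.

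**Figure D2:**
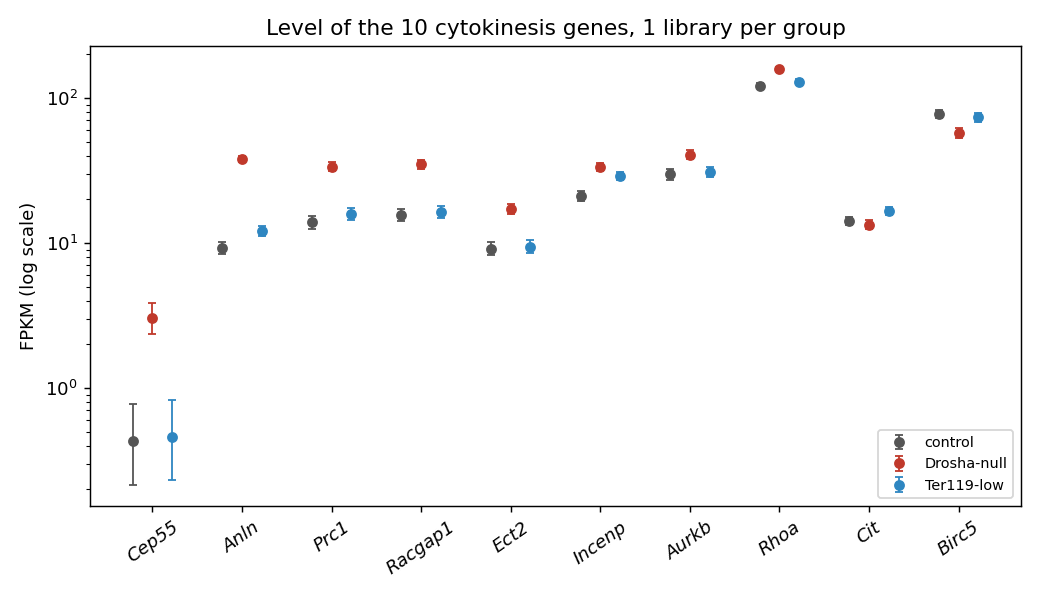
FPKM of each member on a log axis, with grey for the control, red for the Drosha-null and blue for the Ter119-low library, with 95% counting intervals as bars. The null library's point lies above the other libraries' points most clearly for Anln, Racgap1, Prc1 and Cep55. These levels are not scaled by TMM.

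Of 65 other cytokinesis genes measured, 1 was called higher (Rhob) and 1 lower (Septin3) in the null library against the control, where 12.4% of all genes were called higher and 7.79% lower. Their median was 0.18, with 43 above 0. Rhob, a RhoA relative, had 49, 251 and 68 counts and a ratio of 1.94, a 3.83-fold higher scaled level (2.83 to 5.36). Septin3, a septin, had 44, 25 and 26 counts and a ratio of -1.21 (-1.99 to -0.48). Among the 20 RhoA effector, myosin and actin genes Actb was at 0.16 and Pfn1 at -0.26, and among the 8 septins Septin2 was at 0.45 and Septin11 at 0.04. The 8 central spindle partners, among them Kif4 at -0.02 and Kif14 at 0.47, had a median of 0.45, and 6 had an interval above 0. Kif23, the kinesin that pairs with Racgap1, lay at 0.41 (0.23 to 0.58); it was named after its value was seen.

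The 4 passenger partners had a median of -0.12, with Cdca8, the borealin subunit, at -0.53 and Bub1 at -0.22. The 25 ESCRT and partner genes had a median of 0.06, with Pdcd6ip at 0.06 and Vps25 at -0.91, and none was called. Of 30 other mitosis genes 1 was called lower, Cenpa at -1.15, and Mki67 and Top2a stood at -0.56 and 0.56. Among the 11 MuvB, B-Myb and FoxM1 genes 1 was called lower, E2f4 at -1.06, with Mybl2 at -0.67. Over all genes measured in the null library against the control, 12.4% were called higher and 7.79% lower. The shift of 0.43 with total counts is larger than the distance of Septin3, Cenpa and E2f4 from the 2-fold limit, and larger than the passenger partners' median, so those calls and that sign depend on the scaling.

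Against the Ter119-low library, 4 of 65 other cytokinesis genes were called higher in the null library, Arhgef2 at 1.17, Myl9 at 1.92, Rhob at 1.55 and Ulk3 at 2.04, the last on 33 and 6 counts, where 10.8% of all genes were called higher. In the Ter119-low library against the control, 1 of 64 was called, Myl9 lower at -1.54 on 20 and 7 counts, where 2.76% of all genes were called lower. The 6 cardiac muscle markers summed to 8.93 CPM for the control, 26.1 for the null and 6.29 for the Ter119-low cells; Nppa was at 0 in the first, Myh6 in the second, and Myh6 and Tnnt2 in the third. In the null library 86 of the cardiac counts were Actc1 and 181 were Ttn. Tnnt2 was at 1.9 CPM in the control and 1.79 in the null library. Of 3 cardiac markers measured against the control, 2 were called higher in the null library, Actc1 at 1.74 and Ttn at 1.87. Against the Ter119-low library all 3 were called higher, Actc1 at 2.86, Ttn at 1.77 and Tnnt2 at 5.03 on 20 and 0 counts. Over all genes, 12.4% and 10.8% were called higher in these comparisons. The 6 endothelial markers, none at 0, summed to 6.9, 16.2 and 6.17 CPM. Of 5 measured against the control, 2 were called higher in the null library, where 12.4% of all genes were called higher. These were Pecam1 at 3.58, on 3 and 55 counts, and Tek at 2.10, on 4 and 25 counts. Cdh5 and Egfl7 were each at 0.97, whereas Kdr was at 2.62 CPM in the control and 2.33 in the null library. Against the Ter119-low library 3 of 5 measured were called higher, Pecam1 at 3.30, Tek at 3.76 and Kdr at 1.16. Cdh5 at 0.66 and Egfl7 at 0.34 were not called there, where 10.8% of all genes were called higher. The macrophage markers summed to 5.24, 4.76 and 2.69 CPM, with Mrc1 and Emr1 at 0 in the Ter119-low library, and megakaryocyte markers to 11.7, 12.3 and 13.4, with Ppbp at 0 in the null and Ter119-low libraries and Pf4 in the null. Mesenchyme markers summed to 5, 6.64 and 5.39 CPM and yolk sac endoderm markers to 0.714, 3.14 and 1.01. Apoa1 was at 0 in the control and null libraries and Ttr in the control and Ter119-low libraries. Against the control, 1 of 2 measured mesenchyme markers was called higher in the null library, Pdgfra at 1.24, with Col3a1 at -0.47. The 1 yolk sac marker measured there, Krt18, was called higher at 1.78, on 4 and 20 counts. Against the Ter119-low library Pdgfra (1.23) and Krt18 (2.23) were again called higher, with Col3a1 at -0.78. The part of all these cell type markers in the cytokinesis results was not tested.

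**Figure D3:**
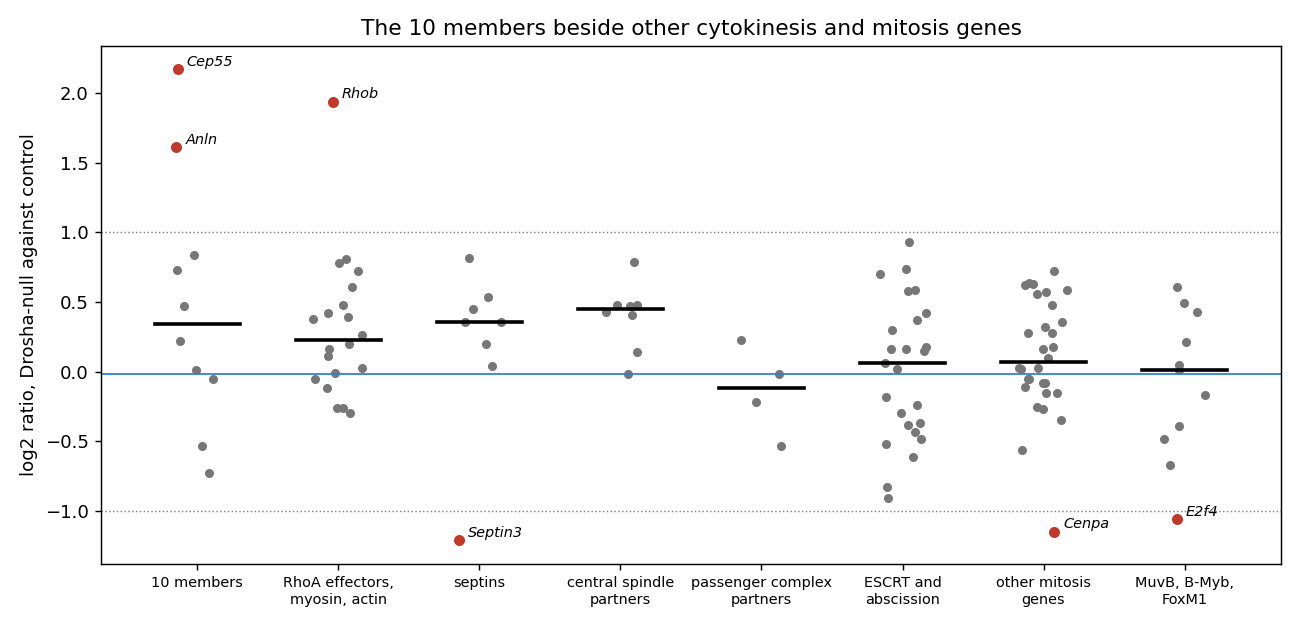
Log2 ratios, Drosha-null against control, for the members and the other lists, 1 point per gene. Black bars are list medians, the blue line is the median over all genes and dotted lines mark 2-fold, past which lie Anln, Cep55, Rhob, Septin3, Cenpa and E2f4.

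The CHR letters and the ratios can be set side by side, as a description. The 5 members with a match had null to control ratios of 0.47 to 2.17, median 0.84, and the 3 members with a window and no match had -0.73 to -0.05, median -0.53. Other mitosis genes had the same order of medians, by a smaller margin, and other cytokinesis genes and all measured genes had the reverse. Of 51 other cytokinesis genes with a window, the 16 with a match had a median of 0.15 and the 35 without 0.26, whereas of 27 other mitosis genes the 21 with a match had 0.16 and the 6 without -0.08. Of 8704 measured genes with a window, 1441 with a match had a median of -0.05 and 11.1% called higher, and 7263 without had -0.01 and 12.6%. A CCAAT box (those letters on either strand), held by 37.4% of all windows, was in the Ect2, Prc1 and Racgap1 windows and shared no base with the CHR letters.

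**Figure D4:**
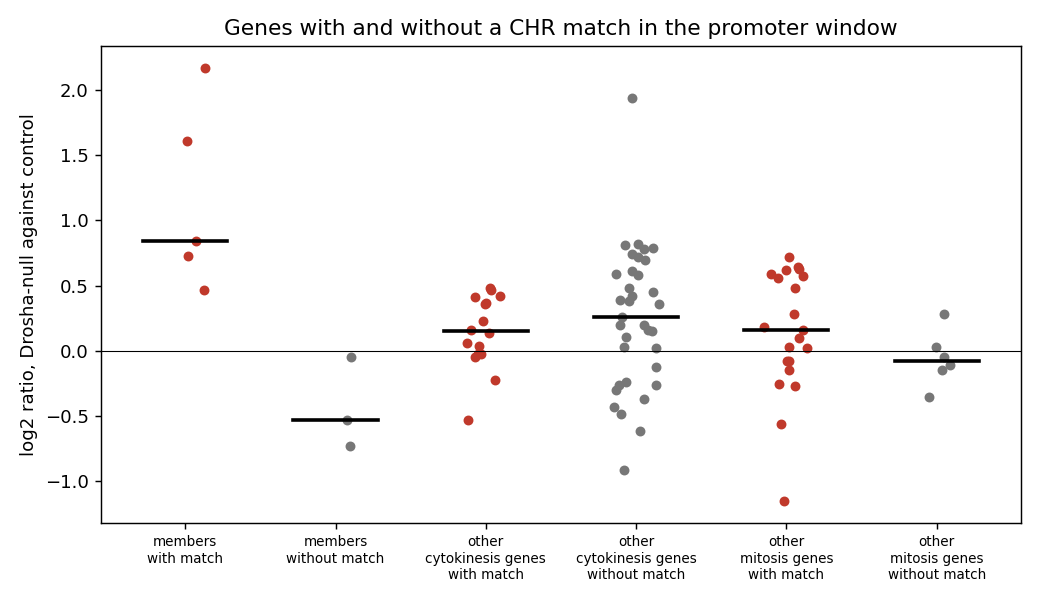
Log2 ratios, Drosha-null against control, of genes with and without a CHR match in the promoter window, for members, other cytokinesis genes and other mitosis genes. Black bars are medians, 0.84 and -0.53 for members, 0.15 and 0.26 for other cytokinesis genes and 0.16 and -0.08 for other mitosis genes.

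The 6 microRNAs below, known from blood cells, were taken as examples of what Drosha makes. No small RNA was measured, so only their letters are given, from RefSeq, with the seed (bases 2 to 8) in capitals. None of the 6 shares its seed with another.
mmu-miR-451a: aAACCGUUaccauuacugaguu
mmu-miR-144-3p: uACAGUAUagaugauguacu
mmu-miR-16-5p: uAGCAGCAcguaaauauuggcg
mmu-miR-17-5p: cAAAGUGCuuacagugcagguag
mmu-miR-92a-3p: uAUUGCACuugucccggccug
mmu-let-7a-5p: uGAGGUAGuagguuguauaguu
A seed match was looked for in the longest annotated 3′ UTR (GENCODE M21, GRCm38) of each gene, and Cep55 was the 1 member with a miR-451a match, a match that 2.09% of 10366 genes with a 3′ UTR hold. Each member's site is shown with the seed match in capitals.
Cep55, miR-451a, bases 482 to 488 of 925: tgctattgtagAACGGTTactagcaa
Cep55, miR-17-5p, bases 61 to 67 of 925: tttctttatagGCACTTTaaaccaca
Prc1, miR-92a-3p, bases 730 to 736 of 1109: tcatttctgtaGTGCAATttcttgag
Cit, miR-92a-3p, bases 928 to 934 of 2619: gccaggaaagcGTGCAATagacttgc
Birc5, miR-16-5p, bases 750 to 756 of 2936: gaggtgggtccTGCTGCTcaagtccc
Birc5, let-7a-5p, bases 2663 to 2669 of 2936: ctttaaagtggCTACCTCtctttggt
Of genes with a 3′ UTR, 15.5% held the miR-17-5p match, 7.9% the miR-92a-3p match, 26% the miR-16-5p match, 11% the let-7a-5p match and 14.5% the miR-144-3p match. Anln, Ect2, Rhoa, Racgap1, Aurkb and Incenp held none of the 6, and the Anln UTR searched was 1038 bases long. Of the 4 members with a match, Cep55 and Prc1 had null to control ratios of 2.17 and 0.84, and Cit and Birc5 had -0.53 and -0.73. A match is letters in a window, not a site shown to act.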

How the data were processed

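Total RNA was sequenced from 3 sorted erythroblast libraries, 1 per group, of 5 pooled embryos each. The deposited tables give, per gene and library, expected counts (fractional for 1309 of the genes) and FPKM, and the authors' log2 ratio and p-value per comparison. The authors' p-values were not used, and no label or header names an aligner, counter or build. The 2 tables (14640 and 14300 genes, 13882 shared, control counts equal in all) were joined to 15058 genes, 21 date-like symbols were restored, and expected counts were rounded. Gene locations come from GENCODE M21 and RefSeq windows from GRCm38.p6.

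Counts were scaled by TMM (edgeR 4.0.16, R 4.3.3). Ratios add 0.5 counts, need 1 CPM in either library, and carry exact 95% Clopper-Pearson intervals. The fold rule was 2. With 1 library per group no replicate test, pairing or p-value was possible. The script was checked on simulated data. The members, the lists and the motifs were chosen with earlier results of these data known. The named genes are all members and, from each other cytokinesis, mitosis or regulator list, the 2 most abundant in the control and every called gene. That rule did not cover the cell type markers, of which some were named because they were called. Of 162 list entries 159 matched. Alternatives were total counts, DESeq2 1.42.0 size factors, totals without ribosomal RNA and globin, FPKM, other filters and folds, and, chosen after seeing the data, centring on length class. The values of 1 marker gene are not reported here.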

Additional observations from a re-analysis of the deposited data

How the results depend on the processing

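Under TMM 2 members (Anln and Cep55) were called higher in the Drosha-null library against the control and 2 against the Ter119-low library. With total counts or the authors' FPKM both counts were 4, adding Racgap1 and Prc1, and the medians of 0.34 and 0.29 became 0.78 and 0.63. Without ribosomal RNA and globin counts the first median was 0.53. Centred on length class, the first median was 0.27, and the null to control ratios were 1.39 for Anln, -0.82 for Cit and -0.45 for Birc5. With a 10 CPM filter 1 member (Anln) was called in each. With a 1.5-fold rule 5 were called in each, among them Birc5 lower against the control and Cit lower against the Ter119-low library. The share of all genes called by FPKM, under that filter or under that rule was not computed, so these member counts have no background beside them. The FPKM calls used the fold alone, without a counting interval. With total counts the median of all genes, null against control, moved from -0.02 to 0.41, and genes called higher rose from 1333 to 2419 of 10769, and from 1170 to 1975 of 10795 against the Ter119-low library, so the background grew with the members' count. Under the alternatives run, no member was called in the Ter119-low library against the control. No paired analysis was possible because each group has 1 library, so no library could be left out either. Cep55 rests on 11, 68 and 11 counts.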
